A study of Mus musculus with 19 samples.

Results

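Deletion of the Lmbr1 promoter in mouse limb buds was compared with wild type limb buds in capture Hi-C maps of the Shh locus. Capture Hi-C joins DNA ends that lie close together in fixed nuclei, enriches 1 genomic region and counts the joined pairs. The comparison took the 2 samples of the promoter deletion and the 3 of wild type limb, 5 of the 19 samples of the series, and both groups came as 1 merged map each. All bin pairs were compared, and the 3 bins of the domain border beside the Lmbr1 promoter and the 13 bins of the Lmbr1 body were taken apart from the rest. A difference that ran over neighbouring bins lay at and just above that border. It was not the only one, since by a second measure a run of 15 bins also lay below Shh. In the deletion map a stretch of 13 bins, starting inside the border, met the Shh gene desert more. Its contact was 0.73 times the expected signal, against 0.618 in wild type. The bins were chosen by this same contact, so its size is a description only. The log2 ratio was 0.24, and 0.06 when each map was scaled by its total signal. The lower bins of the stretch met the DNA further above less.

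Both groups were limb buds of embryos at day E10.5, and balanced maps of whole buds average over all their cell types. The deletion embryos were homozygous for the allele named Lmbr1 delta prom, in the strain G4, the name of a hybrid embryonic stem cell line used for genome editing. The wild type embryos were C57BL/6. Strain and genotype therefore cannot be told apart from these maps alone. A map of limb buds with a deletion named ZRSreg, also in G4 and also of 2 samples, was set beside the main values as a second reference. Ratios of both deletions to wild type share the wild type map, so their values are given side by side only. Per the series design, mutant samples were technical replicates and wild type samples biological ones. The titles of the deletion samples share 1 library number, and those of 2 of the 3 wild type samples share another. The sources used here do not state the size or ends of the promoter deletion, and no measurement of Lmbr1 or Shh expression was analysed.

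Shh encodes a secreted signal that patterns the limb along its thumb-to-little-finger axis. Its limb enhancer, the ZRS, lies far from the gene, inside an intron of Lmbr1, and mutations of the ZRS change digit number. A topologically associating domain is a stretch of chromosome whose parts meet one another more often than they meet DNA beyond its borders. The Shh domain runs from the Shh promoter over a gene desert, in which brain and other enhancers lie, to Lmbr1. Active promoters and sites bound by CTCF, a protein that halts the ring-shaped cohesin complex as it extrudes loops, are often found at such borders. Lmbr1 encodes a membrane protein and is read towards Shh, so that its promoter faces the upper border. In the RefSeq gene order Rnf32 lies next to Lmbr1 on the side of Shh and Nom1 on the other side.

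The RefSeq promoter window of Lmbr1 (build GRCm38.p6, chr5:29378341-29378640, minus strand) is shown because the deleted allele is named for this promoter. It spans 250 bases before the start site and 50 from it onwards, and capitals mark the GC box GGGCGG and the half-site TGACG, each searched on both strands.
Lmbr1 promoter: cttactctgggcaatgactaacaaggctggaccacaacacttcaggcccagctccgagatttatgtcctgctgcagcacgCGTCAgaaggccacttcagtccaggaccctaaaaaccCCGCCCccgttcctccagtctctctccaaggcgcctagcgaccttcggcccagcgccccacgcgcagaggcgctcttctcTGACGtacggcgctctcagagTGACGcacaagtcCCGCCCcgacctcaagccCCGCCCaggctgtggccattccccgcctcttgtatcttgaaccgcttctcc
The window held 3 GC boxes. Of 32851 promoter windows of the same length, 10.7% held 3 or more and 35.7% at least 1. GC boxes are bound by Sp family activators. It held 3 copies of TGACG, the half-site of CREB and ATF factors, where 1.03% of windows held as many and 20.8% at least 1. The motifs do not overlap. Neither CCAAT nor TATAAA was present, which 37.4% and 13.6% of windows hold. It had 62% G and C and 21 CpG dinucleotides, against medians of 52.7% and 7, and 75.2% of windows held fewer CpG. These letters describe the normal promoter in another build than the maps, and no site or bound factor follows from them. The Shh promoter is named only.

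The maps cover 280 bins of 10 kb on chromosome 5 from 27800001 to 30600000 in the mm9 build. They held 3022706 contacts in the promoter deletion, 2862106 in wild type and 2544793 in ZRSreg. These counts were recovered from the balanced signal. Balancing gives every bin of a map the same total, so that a bin with more contact on 1 side must have less on another. Positions are given in kb from the bin that holds most of the Shh promoter viewpoint. Values are observed over expected, the balanced signal over the mean of all pairs as far apart within that map, and a difference is the log2 of the ratio of such values. Each difference comes with a 95% interval that covers counting error only, since no replicate spread exists for merged maps and hence no test was possible. Pairs sequenced without molecular identifiers are not independent molecules, so the intervals are too narrow if duplicates remain.

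The deletion itself was looked for first. The middle border bin (910 kb, 29700001 to 29710000) held 10614 contacts in the deletion map and 11794 in wild type, although the deletion map is the deeper. Relative to its 6 neighbours this bin stood at -0.71 on the log2 scale in the deletion and -0.49 in wild type. The other maps lay from -0.60 in ES cells to -0.33 in limb i4i5, a deletion of CTCF sites. The deletion map was thus the lowest of 9. The difference of -0.23 from wild type was the third lowest of 274 bins, whose SD was 0.10. Whether DNA missing from this bin accounts for the shortfall was not tested. Its neighbours at 900 and 920 kb stood at 0.32 and 0.68 in the deletion and at 0.16 and 0.75 in wild type.

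Over all pairs 20 to 1500 kb apart few single pairs were far from wild type. Of 30396 pairs 17948 held 20 or more contacts in both maps, and their log2 ratios had a median of 0.01 and an SD of 0.29. The deletion was at least 1.5-fold higher in 505 (2.81%) and at least 1.5-fold lower in 450 (2.51%). Counting intervals lay above 0 in 523 (2.91%) and below 0 in 438 (2.44%). The contact of the 3 border bins was uneven by side. With partners below them, towards Shh, 14 of 331 pairs (4.23%) were 1.5-fold higher and 5 (1.51%) lower. With partners above, 2 of 204 (0.98%) were higher and 13 (6.37%) lower, and in 28 (13.7%) the interval lay below 0. For the body bins 71 of 2153 (3.3%) were higher and 45 (2.09%) lower, close to the share over all pairs.

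The contact of the border bins with the domain interior, the 66 desert bins from 100 to 750 kb, was 0.974 in the deletion, 0.872 in wild type and 0.853 in ZRSreg. The log2 ratio of deletion over wild type was 0.16 (0.11 to 0.20, from 8228 and 8186 contacts), and 129 of 198 pairs were higher. Scaled by total signal in place of separation its sign turned (-0.04). ZRSreg over wild type gave -0.03. Higher contact was not limited to the interior. With the lowest stretch of the region, -990 to -550 kb, the border bins gave 0.17 (0.07 to 0.26), and ZRSreg 0.03. The bin at 920 kb alone gave 0.25 (0.10 to 0.40) there. With the bins from -540 to -50 kb the border bins gave 0.00 (-0.06 to 0.05), an average over parts of opposite sign. As running means over neighbouring partners, the ratio was 0.39 (0.17 to 0.60) at -490 kb, with ZRSreg at 0.16. At -270 kb it was -0.19 (-0.32 to -0.06), with ZRSreg at 0.01. The highest running mean, 0.44 at -550 kb (ZRSreg 0.15), lay above the highest in the interior, 0.34 at 210 kb (ZRSreg 0.06). The 3 bins did not share the difference with the interior equally. The bin at 900 kb, on the Lmbr1 side, had 1.10 and 1.09 and a ratio of 0.01 (-0.06 to 0.08). The bin at 910 kb had 1.01 against 0.849, a ratio of 0.25 (0.15 to 0.35), from 1612 and 1769 contacts. Its contacts were thus fewer in the deletion, and no ratio without balancing is given for this bin alone. With interior bins at 100 to 310, 320 to 530 and 540 to 750 kb its ratio was 0.39, 0.25 and 0.04. The bin at 920 kb had 0.812 against 0.679, a ratio of 0.26 (0.19 to 0.33), from 3235 and 3055 contacts. There 52 of 66 pairs were higher. In ZRSreg the bins at 910 and 920 kb stood at 0.863 and 0.668. In balanced values the difference thus began between the first and the second of 3 adjacent bins.

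Beyond the border bins the higher contact with the interior went on. A stretch was taken from 910 kb upwards for as long as the counting interval of a bin lay above 0, a rule set after the profile had been seen, and it ended at 1030 kb. Its 13 bins had log2 ratios from 0.14 to 0.29 with a median of 0.26. In ZRSreg over wild type the same 13 bins ran from -0.08 to 0.03, and 1 was higher. Summed over the stretch, 25726 contacts in the deletion and 24356 in wild type gave a ratio of 0.24 (0.22 to 0.27), a contact 18.1% higher, and 613 of 858 pairs were higher. Against ZRSreg in place of wild type the ratio was 0.28 (0.25 to 0.30). Because the values chose the bins, the size and the ranks that follow are a description only. Among the 214 bins outside the interior, bins of the stretch took ranks 1 to 10 of the ratio with the interior, with the bin at 990 kb first. Ranks 11 to 13 went to bins outside the stretch, at 1610 kb (0.22), 1580 kb (0.21) and 1760 kb (0.20). The other 3 bins of the stretch, at 980, 1020 and 1030 kb, took ranks 14, 19 and 22.

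**Figure D1:**
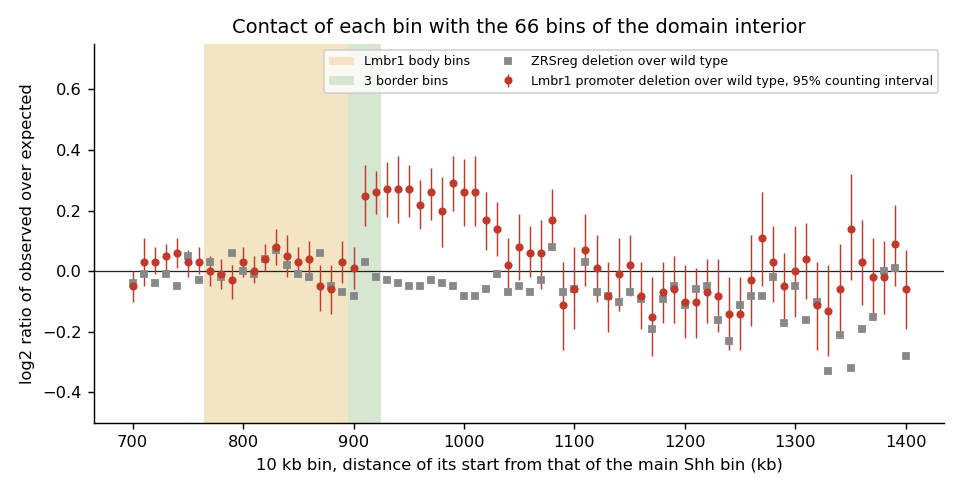
Log2 ratio of observed over expected (y axis) between each 10 kb bin (x axis, kb from the main Shh bin) and the 66 bins of the domain interior, for the Lmbr1 promoter deletion (points with 95% counting intervals) and ZRSreg (squares) over wild type limb. The deletion points lie near 0 up to the bin at 900 kb, from 0.14 to 0.29 in the 13 bins from 910 to 1030 kb, and mostly around or below 0 further up, with values of 0.17 at 1080 kb, 0.11 at 1270 kb and 0.14 at 1350 kb.

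On either side of the stretch the difference was small. The 21 bins from 700 to 900 kb, which hold the Lmbr1 body, had a median ratio of 0.03, and their joint contact with the interior was 1.34 against 1.32. Above the stretch the 16 bins from 1040 to 1190 kb had a median of 0.00, with the interval above 0 in 1 and below 0 in 1. The 21 bins from 1200 to 1400 kb had a median of -0.05. Over the whole upper flank of 48 bins, 930 to 1400 kb, contact with the interior was 0.648 against 0.631, a ratio of 0.04 (0.02 to 0.05), or -0.08 when scaled by total signal. The average over the flank hides the first 6 bins, 930 to 980 kb, where it was 0.776 against 0.653 and the ratio 0.25 (0.21 to 0.29), with ZRSreg at 0.635. The Lmbr1 body met the same 6 bins at 0.604 against 0.534, a ratio of 0.18 (0.12 to 0.23) with 61 of 78 pairs higher, and ZRSreg stood at 0.522.

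The border bins and the near flank met the DNA further above less. Contact of the 3 border bins with the upper flank was 1.15 in the deletion, 1.31 in wild type and 1.34 in ZRSreg. The ratio over wild type was -0.19 (-0.22 to -0.16, from 15168 and 17890 contacts), and 41 of 143 pairs were higher. By distance, the near flank, 930 to 980 kb, showed a ratio of 0.01 (-0.05 to 0.07). The middle flank, 990 to 1190 kb, showed -0.24 (-0.29 to -0.20), with 12 of 63 pairs higher, and the far flank, 1200 to 1400 kb, -0.17 (-0.23 to -0.11). The border bins at 900, 910 and 920 kb gave -0.14, -0.33 and -0.25 with the middle flank. The near flank itself met the middle flank at 1.22 against 1.38, a ratio of -0.18 (-0.20 to -0.15) with 25 of 125 pairs higher, and ZRSreg was at 1.38. Since bin totals are fixed, the higher contact below and the lower contact above are not independent of each other. In recovered counts without balancing, the ratio of the border bins to the middle flank and that of the stretch to the interior (0.19) kept these signs.

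**Figure D2:**
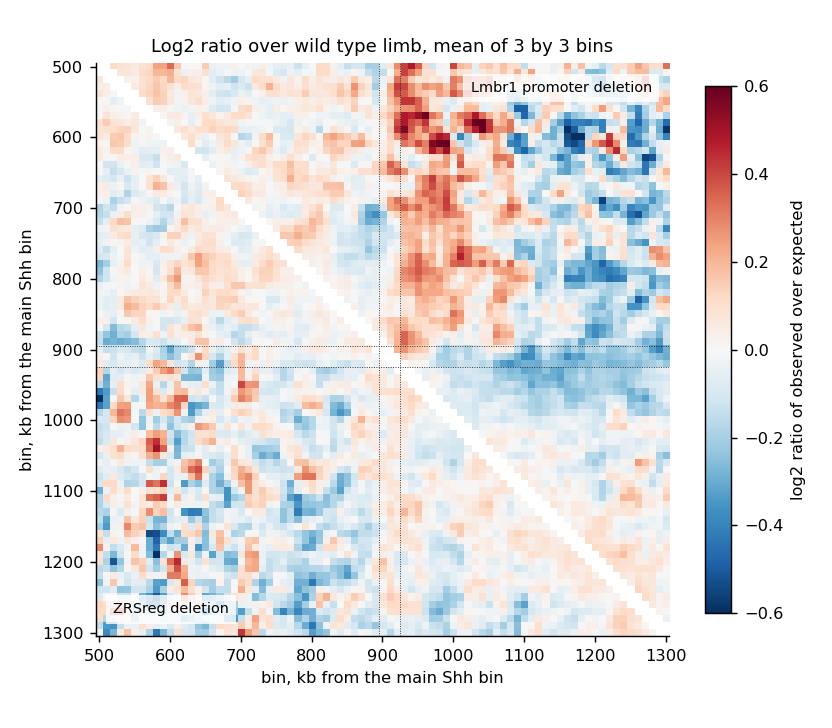
Log2 ratio of observed over expected to wild type limb for bin pairs from 500 to 1300 kb (both axes in kb from the main Shh bin, colour from -0.6 to 0.6, mean of 3 by 3 bins), with the Lmbr1 promoter deletion above the diagonal and ZRSreg below it. Dotted lines bound the 3 border bins. Above the diagonal a higher column from 910 to about 1030 kb meets the domain, and a lower band joins the bins from 910 to 980 kb to partners beyond 990 kb.

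**Figure D3:**
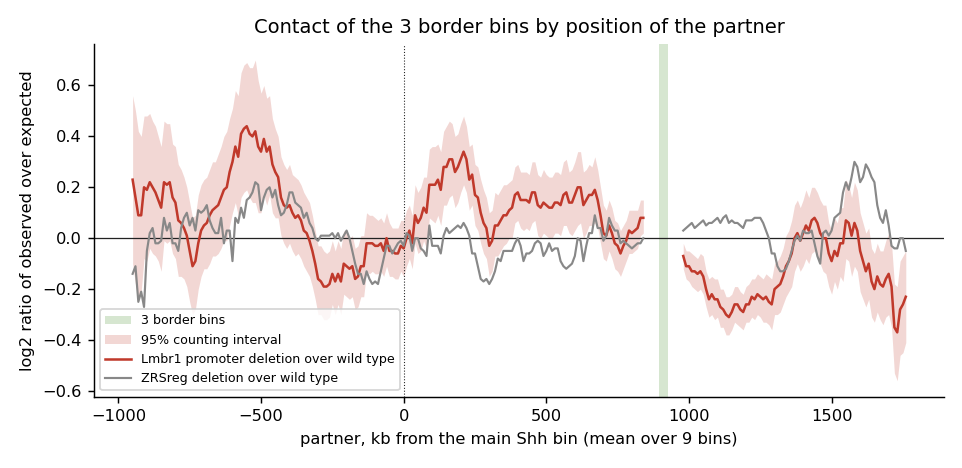
Log2 ratio of the contact of the 3 border bins (y axis) by position of the partner (x axis, kb from the main Shh bin, mean over 9 bins), with the 95% counting interval as a band for the Lmbr1 promoter deletion and a grey line for ZRSreg, both over wild type. The deletion line is mostly above 0 from 100 to 750 kb and below 0 from 990 to 1190 kb. It is highest far below Shh, at -550 kb, with 0.44 (0.19 to 0.69).

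Among the 66 pairs of bins from 860 to 980 kb that lie 20 kb or more apart, the interval was above 0 in 8 and below 0 in 1. All 8 joined a bin at or below 900 kb to one at or above 920 kb, where 35 of the pairs lie, while over all pairs 20 to 90 kb apart the interval was above 0 in 4.8%. The largest ratios with over 50 contacts in each map were 0.61 (0.31 to 0.92) for 890 by 930 kb, 0.59 (0.22 to 0.97) for 890 by 940 kb and 0.54 (0.24 to 0.85) for 880 by 920 kb. ZRSreg over wild type gave 0.38, 0.36 and -0.12 there. The pair of 870 and 980 kb gave 1.01 (0.22 to 1.84) from 43 and 21 contacts, and ZRSreg 0.99. Of the 8, the pair with the most contacts joined the bins at 900 and 920 kb, which flank the middle border bin. They met at 0.785 in the deletion, 0.581 in wild type and 0.538 in ZRSreg, from 875, 544 and 523 contacts. The log2 ratio of deletion over wild type was 0.43 (0.28 to 0.59). DNA missing between 2 bins shortens the distance between them, and the part of this in the value was not tested. The bin at 920 kb met the Lmbr1 body at 0.604 against 0.521, a ratio of 0.21 (0.12 to 0.30) with all 13 pairs higher. For the bins at 900 and 910 kb the ratios with the body were -0.01 (-0.10 to 0.08) and -0.01 (-0.13 to 0.10). For all 3 border bins with the body the value was 0.06 (0.00 to 0.11).

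The partners with the highest and lowest ratios were taken for each border bin at 100 kb or more, as means over 3 bins. For the bin at 910 kb the highest were at 210 kb (1.35 against 0.821, ratio 0.72, 0.22 to 1.22), 370 kb (0.48) and -460 kb (0.43), and the lowest at -280 kb (-0.53), 1300 kb (-0.52) and 1230 kb (-0.50). For the bin at 920 kb the highest were at 700 kb (0.664 against 0.429, ratio 0.63, 0.24 to 1.02), 250 kb (0.61) and 180 kb (0.60). Its lowest were at 1750 kb (-0.96, from 42 and 78 contacts), 1100 kb (-0.41) and -250 kb (-0.34). All 3 highest partners of this bin thus lay in the desert. Of these, those at 700 and 180 kb were also higher in ZRSreg, by 0.35 and 0.48, whereas the partner at 250 kb was lower there, at -0.34. The bin at 900 kb had its highest partners below Shh, at -470 kb (0.52, -0.03 to 1.08), -420 kb (0.52, 0.07 to 0.97) and -670 kb (0.49, -0.10 to 1.09). Its lowest were at 1640 kb (-0.59), 1520 kb (-0.49, -0.98 to 0.00) and 1310 kb (-0.48). The interval also spanned 0 for 910 kb with -460 kb (-0.20 to 1.07) and for 920 kb with -250 kb (-0.73 to 0.04). For the bin at 900 kb, ZRSreg over wild type gave -0.10, 0.48 and 0.43 at the 3 highest partners. At its 3 lowest ZRSreg gave 0.00, 0.20 and -0.45. All these partners were picked as extremes.

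Insulation sums the contacts that cross a bin, here as the mean signal of the 10 bins below with the 10 bins above it, on a log2 scale against the map's average. It is low where few contacts cross. At the bin at 910 kb it was 0.19 higher in the deletion than in wild type, the largest increase among 260 bins, whose SD was 0.07, while ZRSreg differed by -0.03. In observed over expected 77 of 100 pairs of the square were higher, with a ratio of 0.17 (0.13 to 0.21). With squares of 5 and 20 bins the difference in insulation was 0.26 and 0.13, rank 1 of 270 and rank 10 of 240. At the bins at 900 and 920 kb it was 0.13 and 0.09. The lowest insulation between 800 and 1000 kb lay at 910 kb in wild type and ZRSreg (-0.78 and -0.82) and at 890 kb in the deletion (-0.64). With a square of 5 bins it again lay at 910 kb in wild type and at 890 kb in the deletion, and with 20 bins at 890 kb in all 3 maps. At 1030 kb, the last bin of the stretch, insulation was 0.13 in the deletion, 0.25 in wild type and 0.21 in ZRSreg.

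**Figure D4:**
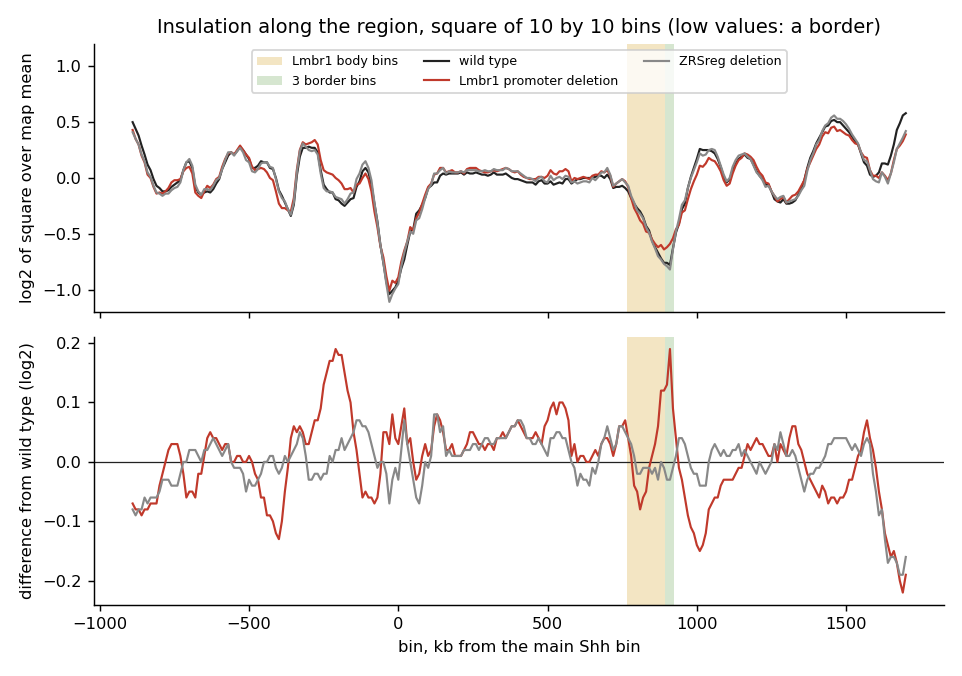
Insulation along the region (top, log2 of the square's mean signal over the map mean; x axis in kb from the main Shh bin) for wild type, the Lmbr1 promoter deletion and ZRSreg, and the difference of each deletion from wild type (bottom). The red line peaks at 0.19 at the bin at 910 kb, where ZRSreg is at -0.03, and a like peak stands near -210 kb.

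Changes of the same size occurred elsewhere. Insulation was 0.19 and 0.18 higher at -210 and -200 kb, below Shh, where ZRSreg differed by 0.02 at both bins. It was 0.22, 0.20 and 0.19 lower at 1690, 1680 and 1700 kb, where ZRSreg was lower by nearly as much (-0.19, -0.19 and -0.16). A second measure took, for each of 229 bins, the median log2 ratio with partners below minus that with partners above. This measure was chosen after the values were seen. It had an SD of 0.11 over bins and was highest at 920 kb (0.34), followed by 930 and 940 kb (0.31 at both). A run was taken as neighbouring bins that all stood above 0.1, so its lowest value follows from this cut. The 10 bins from 910 to 1000 kb formed such a run, with ZRSreg over wild type from -0.12 to 0.15 there. A longer run of 15 bins lay from -210 to -70 kb, with values from 0.10 to 0.29 and ZRSreg from -0.15 to 0.09. The upper border held the highest values but was not the only place with a run.

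The Lmbr1 body, 13 bins from 770 to 890 kb (29560001 to 29690000), was placed from general knowledge of the gene in mm9. Its contact with the Shh promoter was 6.23 in the deletion, 5.74 in wild type and 6.15 in ZRSreg. The ratio over wild type was 0.12 (0.06 to 0.18, from 4332 and 4161 contacts), and 11 of 13 bins were higher. Scaled by total signal it was 0.03 (-0.03 to 0.09). As ZRSreg over wild type gave 0.10 and the deletion over ZRSreg 0.02 (-0.05 to 0.08), both G4 maps lay above the C57BL/6 map by a like amount. By bin the counting interval lay above 0 at 800 kb (7.58 against 6.39), 820 kb (8.84 against 7.69) and 870 kb (7.92 against 6.27). The lowest ratio was at 840 kb (4.99 against 5.61, -0.17, -0.46 to 0.12). In ZRSreg these 4 bins stood at 6.27, 9.56, 7.55 and 6.22, so the bin at 800 kb alone was high in the promoter deletion and not in ZRSreg. The sources used here do not place the ZRSreg element, so how far its own deletion touches these bins was not tested.

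The ZRS window, the 5 body bins from 830 to 870 kb, was likewise placed from general knowledge and not checked against an annotation. The Shh promoter met it at 6.87 against 6.49, a ratio of 0.08 (-0.02 to 0.18), from 1615 and 1574 contacts. Against ZRSreg the ratio was -0.04 (-0.14 to 0.07), and scaled by total signal it was 0.00. The first interval spans 0 and reaches no lower than -0.02. With the border bins the Shh promoter stood at 3.71 against 3.99, a ratio of -0.11 (-0.28 to 0.06), with 3.62 in ZRSreg. By bin it was 4.20 against 4.42 at 900 kb, 3.5 against 4.27 at 910 kb and 3.42 against 3.28 at 920 kb, and each interval spanned 0. With the near flank it was 2.70 against 2.52, a ratio of 0.10 (-0.05 to 0.24). With all 13 bins of the stretch it was 3.32 against 3.43, a ratio of -0.05 (-0.13 to 0.04) from 2113 and 2434 contacts, and ZRSreg stood at 3.51. Within the stretch the bin at 980 kb was higher (3 against 2.14, 0.49, 0.06 to 0.93), and the bins at 960 kb (2.78 against 3.47, -0.32, -0.63 to -0.02) and 1020 kb (3.99 against 5.02, -0.33, -0.58 to -0.09) were lower.

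**Figure D5:**
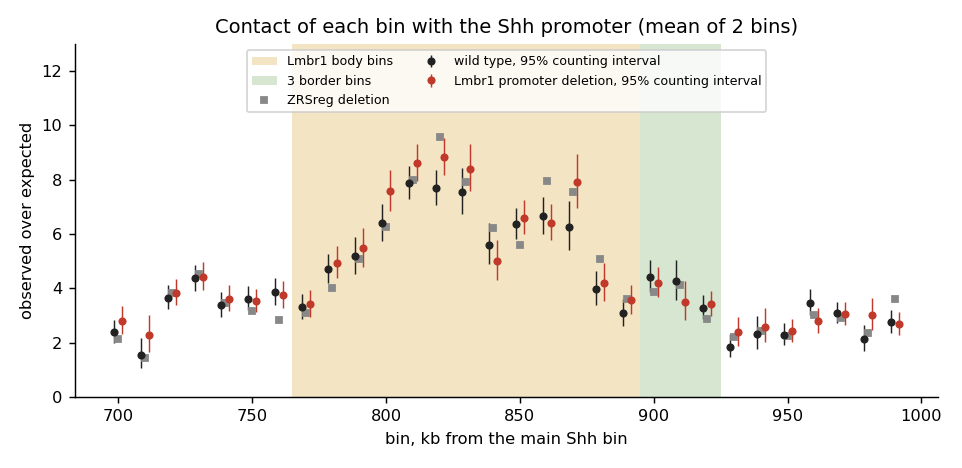
Observed over expected between each bin from 700 to 990 kb (x axis, kb from the main Shh bin) and the 2 bins of the Shh promoter (y axis), in wild type and the Lmbr1 promoter deletion with 95% counting intervals and in ZRSreg as squares. The intervals of wild type and deletion overlap in most bins, and the highest contact lies at 810 kb in wild type and at 820 kb in both deletions.

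With the domain interior the body stood at 1.41 against 1.4, a ratio of 0.01 (0.00 to 0.03) from 68203 and 70227 contacts, with 456 of 858 pairs higher. By bin the ratios ran from -0.06 at 880 kb to 0.08 at 830 kb. Within the body the ratio was -0.03 (-0.06 to 0.01), and with the upper flank -0.02 (-0.04 to 0.01). The last averages a near flank at 0.18, given above, a middle flank at 0.01 (-0.02 to 0.05) and a far flank at -0.09 (-0.13 to -0.04), where ZRSreg gave -0.08. The ZRS window met the interior at 1.47 against 1.43, a ratio of 0.03 (0.01 to 0.06), and ZRSreg over wild type gave 0.03. With the stretch from -990 to -550 kb, the lowest of the region, the body gave 0.13 (0.08 to 0.17), and ZRSreg 0.09. The desert interior itself was at 1.21 against 1.17 within itself, with ZRSreg at 1.2.

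The maps also differed in how contact decays with distance. As a share of the total signal, the mean of pairs 100 to 290 kb apart was lower in the deletion than in wild type by 0.20 on the log2 scale, and that of pairs 300 to 590 and 600 to 990 kb apart by 0.17 and 0.12. In ZRSreg these differences were -0.13, -0.11 and -0.07. Scaling per separation removes them. Scaled by total signal in place of separation, the interval for the border bins with the interior was -0.09 to 0.00, and the stretch from 910 to 1030 kb gave 0.06 (0.04 to 0.09) rather than 0.24. The higher contact of the stretch is thus relative to other pairs of the same separation.

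Other deletions of the series gave the following at the same places, all over the same wild type limb map, so that the values are not independent. The domain interior met the near flank at 0.852 in limb i4i5, 0.881 in i4i5ZRS, which lacks a further CTCF site, and 0.880 in i4i5 with ZRSreg, against 0.653 in wild type and 0.776 in the promoter deletion. The log2 ratios were 0.38 (0.34 to 0.43), 0.43 (0.39 to 0.47), 0.43 (0.39 to 0.47) and, for the promoter deletion, 0.25 (0.21 to 0.29). The border bins met the middle flank at 1.15, 1.2 and 1.16 in the CTCF maps and 1.13 in the promoter deletion, against 1.33. The near flank met the middle flank at 1.25, 1.34 and 1.23 in the CTCF maps and 1.22 in the promoter deletion, against 1.38. There i4i5ZRS lay close to wild type, with a ratio of -0.05 (-0.07 to -0.02). In the bin at 920 kb the ratio with the interior was 0.36, 0.45 and 0.44 in the CTCF maps and 0.26 in the promoter deletion.

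The 5 highest and 5 lowest places of the whole comparison, as means of 5 by 5 bins, lay elsewhere. All 10 joined bins 1580 kb or more apart, none used a border or body bin, and they rested on 29 to 375 contacts per map. The highest joined -490 and 1580 kb (1.16 against 0.567, ratio 1.03, 0.46 to 1.63, from 75 and 39 contacts), and ZRSreg over wild type gave 0.51 there. The lowest joined -510 and 1780 kb (0.542 against 0.968, ratio -0.84, -1.46 to -0.22), with ZRSreg at -0.31. Of the 5 lowest, the place with the most contacts joined -180 and 1400 kb (0.803 against 1.2, ratio -0.58, -0.81 to -0.36).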

How the data were processed

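The authors deposited 1 map per group, a balanced (KR) signal per pair of 10 kb bins with samples merged, per the names of the deposited files. The mm9 build and the tools cutadapt 1.15, Bowtie2 2.3.4.1, SAMtools and Juicer are listed in the submitters' processing notes, without settings or duplicate handling. Unlisted pairs were taken as 0. Contact counts were recovered as signal over 2 bin factors (100% within 0.01 of a whole number in the 9 maps).

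Observed over expected used the mean signal per separation. Counting intervals are exact 95% binomial intervals of counts, moved to the balanced value (Python 3.11.15, NumPy 2.4.6, SciPy 1.17.1). Scripts were tested on simulated data. With 1 merged map a group no test or p-value is given. The members, regions and rules for named features were chosen with earlier results of these data known. Named features were the promoter, border and body bins, the 3 highest and 3 lowest partners of each border bin, the 5 highest and lowest 5 by 5 bin means, and the 3 largest insulation changes each way. The near, middle and far flank and the 910 to 1030 kb stretch were delimited after values were seen. The gene table and promoter (GRCm38.p6) gave gene order and sequence only. Alternatives were the median signal per separation, counts without balancing, ZRSreg as reference, total scaling, other region limits, squares, folds and count minimums.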

Additional observations from a re-analysis of the deposited data

How the results depend on the processing

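Of 104 alternative values, 68 lay within the counting interval of the reported one (or within 1.5 times a reported count) and the rest beyond it. The sign was the reported one in 88, opposite in 10 and the value 0.00 in 6. In 3 of the 10 the reported interval excluded 0 and the value left it. Alternatives for the 910 to 1030 kb stretch, the near flank and the middle flank were chosen after seeing the data. Scaling by total signal gave -0.04 (sign changed) for the border bins with the interior, -0.08 (sign changed) for the interior with the upper flank, -0.28 and -0.42 for the border bins with the upper and middle flank, -0.14 (sign changed), 0.03 and -0.16 for the Lmbr1 body with interior, Shh promoter and upper flank, 0.06 for the stretch and 0.07 for the near flank with the interior. The middle border bin alone gave 0.25 with the interior, -0.26 with the upper flank, -0.33 with the middle flank, -0.29 with the Shh promoter and -0.01 (sign changed) with the body. Against ZRSreg the border bins gave -0.22 with the upper and -0.31 with the middle flank, the body 0.02 with the Shh promoter and 0.05 (sign changed) with the upper flank, the Shh promoter -0.04 with the ZRS window and 0.03 with the border bins (signs changed), and the interior 0.13 with the upper flank, 0.29 with the near flank and 0.28 with the stretch. Without balancing the stretch gave 0.19, the body 0.04 with the interior, 0.04 within itself and 0.01 with the upper flank (sign changed in both last). An upper flank of 28 bins gave 0.03 (sign changed) with the body and 0.09 with the interior. Insulation at 910 kb was higher by 0.26 and 0.13 with squares of 5 and 20 bins. Pairs higher and lower numbered 10 and 11 at a fold of 2, 39 and 25 at 50 contacts, and 2896 and 2818 with no minimum, where fewer or more pairs pass by construction. The cause of the other shifts was not tested. No paired analysis was possible because samples were merged before deposit, and for the same reason no replicate could be left out. At a median of 48 and 52 contacts per tested pair, single pairs are limited by counting error, so the text rests on sums over bins.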
